A study of Rattus norvegicus with 210 samples.

Results

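The mediobasal hypothalamus (MBH) of female rats at postnatal day (PND) 42 was compared between perinatal exposure to diethylstilbestrol (DES) and vehicle. The 20 libraries were taken by their labels, 15 of the 3 DES doses and 5 of control, out of 210 libraries in the series. The series measured messenger RNA in the MBH and the preoptic area (POA) of Sprague-Dawley females at PND22, PND42 and PND90 after perinatal DES or ketoconazole. Dams were gavaged daily with corn oil, alone (control) or holding DES. Dosing began on gestation day 7, paused at birth and ended at PND22. The groups D3, D6 and D12 stand for 3, 6 and 12 µg/kg bw/day, with 5 libraries each, and all 4 groups were untreated between PND22 and PND42. The litter of each rat and its estrous stage at PND42 are not given in the sources used here, so p-values measure the spread between these rats, some of which may be littermates.

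DES is a synthetic estrogen that binds both estrogen receptors. The MBH holds the arcuate nucleus, whose kisspeptin neurons, also called KNDy neurons, drive pulses of gonadotropin-releasing hormone (GnRH) and thereby puberty, and whose Pomc and Agrp neurons set feeding. Myelin is laid down there over the weeks after birth: precursors become newly formed oligodendrocytes, which express Gpr17 and Enpp6, and then mature cells that make the sheath from galactolipids, proteins and cholesterol. The comparison asks whether exposure that ended at weaning left a trace in the MBH transcriptome after puberty.

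Each of the 20 libraries held between 18610125 and 24235728 counts on genes. Control totals (20543108 to 24235728) overlapped those of DES (18610125 to 23420282) but were higher on average (exact permutation test over 15504 splits, two-sided p = 0.0475). Levels below are CPM, a gene's counts divided by the library's total and scaled to 1000000, which removes that difference. Markers of regions describe the dissection, beginning with arcuate genes. Their 8 markers summed to between 42.8 and 88.2 CPM in control (median 78.1) and between 60.9 and 156 CPM after DES (median 106), with Pomc the most abundant. Pomc, Kiss1 and Agrp are among these markers and are also results below, so the sum is no separate check of the dissection. Npy was listed at 0 counts in all 20 libraries, although its partner Agrp was measured in every library. By counting error alone this allows up to 3 counts or 0.161 CPM in the shallowest. Npy held only 1 count over all libraries of the series, both tissues included, so its 0 was not read as a low level. Whether its reads were assigned to the gene was not tested. Thalamic markers varied widely within both groups, with sums of 99.2 to 939 CPM in control and 71.8 to 1199 CPM after DES, with Prkcd the most abundant.

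Before the comparison itself, the libraries were set against an age scale from the other tissue. In control POA libraries, 3922 of 14351 genes tested (27.3%) differed between PND22 and PND90, and the 100 genes that rose most and the 100 that fell most gave an age score (mean log2(CPM + 0.5) of the former minus the latter). This scale was added after values of the MBH had been seen. The control POA libraries of PND22 and PND90, 5 of each age, chose these genes, so their separation was fixed by the choice and is no support for the scale. The POA libraries that the choice did not use also kept apart by labelled age: the 15 DES libraries of PND22 scored -1.32 to -0.92, the 20 libraries of PND42 -0.06 to 0.74, and the 15 DES libraries of PND90 1.07 to 1.81. In the MBH at PND42, the 5 control libraries scored 0.25 to 0.81, close to the POA range of that age. The 15 DES libraries scored 1.26 to 1.90, inside or just above the POA range of PND90, at each dose (D3 1.26 to 1.78, D6 1.33 to 1.70, D12 1.26 to 1.90). No control library reached the score of any DES library. Thus the age scale and the exposure split these 20 libraries in the same way, and effects of exposure and of a later age profile cannot be told apart in them. The same complete split was seen in the MBH at PND22, where control libraries scored -1.001 to -0.77 and DES libraries 0.11 to 1.58. At PND90 the MBH control libraries scored -1.12 to -0.70, next to the POA range of PND22, as did all D3 and D6 libraries (-0.98 to -0.67) and D12 replicates 1 and 2, while D12 replicates 3, 4 and 5 scored 1.49, 1.81 and 1.70. The scores of many MBH libraries thus go against their labelled age, and the labels of age or group may be wrong for some of them, which was not tested. Each value below compares libraries as they are labelled.

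**Figure D1:**
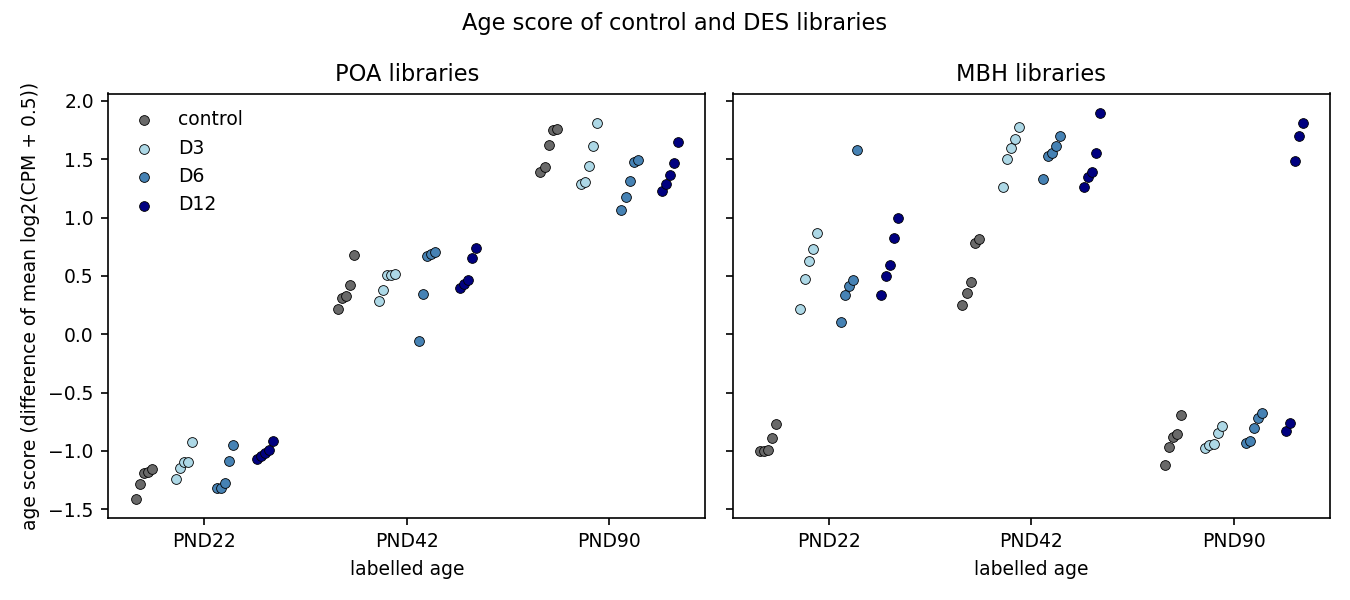
Age score (difference of mean log2(CPM + 0.5) between 100 genes that rise and 100 that fall from PND22 to PND90 in the control POA) of each control, D3, D6 and D12 library, by labelled age. POA libraries form 3 levels by age (fixed by the choice of genes for control at PND22 and PND90), while in the MBH at PND42 the 5 control libraries (0.25 to 0.81) lie below all 15 DES libraries (1.26 to 1.90).

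The rat numbers in the labels did not tie the tissues together either. In all, 17 transcripts were near on or off across the series, with a gap of at least 1 on the log2 scale, and 19 of the 20 rats had a library of each tissue. The state agreed in 65.9% of cases between the MBH and POA libraries of the same rat number, against 67.2% between those of different rats, and in no rat did all 17 agree. LOC103689961, for instance, was at 0.31 CPM in MBH control replicate 3 and at 62.4 CPM in POA control replicate 2, which carry the same rat number. The tissue comparison below uses these numbers as a block and to choose its 19 rats, a link that the agreement above does not bear out. It called 44 genes with the block and 121 without it.

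Over all doses, 354 genes differed from control, which is 2.34% of 15113 tested (edgeR's quasi-likelihood test, adjusted p under 0.05). Of these, 125 rose (0.827% of genes tested) and 229 fell (1.52%). In D3, 72 genes differed (0.476%), with 6 higher (0.0397%) and 66 lower (0.437%). In D6, 97 differed (0.642%), with 31 higher (0.205%) and 66 lower (0.437%). In D12, 192 differed (1.27%), with 86 higher (0.569%) and 106 lower (0.701%). The 3 doses share the 5 control libraries, so these counts are not independent of each other. Between doses, 0 genes passed the test, with 1227 at an unadjusted p under 0.05, while DESeq2 called 9. In 72 genes (0.476%) the 5 control libraries did not overlap the 15 DES libraries, 46 with control above and 26 with control below. The pooled count depended on single libraries: it was 133, 125 and 192 without control replicate 1, 2 or 4, and 232 without D3 replicate 5. It was 53 when the counts of rats with consecutive numbers in a group were summed, leaving 3 control samples.

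The gene with the smallest p belongs to myelin. Ugt8, the enzyme that makes the galactolipids of the sheath, was at 373, 357, 319, 325 and 379 CPM in the 5 control libraries. After DES it was at 155, 143, 167, 159 and 181 CPM in D3, at 156, 126, 181, 169 and 167 CPM in D6, and at 125, 141, 114, 152 and 145 CPM in D12. Every control library was thus above every DES library. The pooled log2 fold change was -1.24 ± 0.08 (SE, 15 against 5 libraries, adjusted p = 2.28e-08), and by dose -1.14, -1.16 and -1.41. Cldn11, of the tight junctions of the sheath, was at 608, 481, 468, 463 and 467 CPM in control and at 187 to 345 CPM after DES (median 266), again without overlap (log2 fold change -0.91 ± 0.12, adjusted p = 1.52e-04). Tspan2, a tetraspanin of myelinating cells, fell by 0.78 on the log2 scale (350 ± 29.0 CPM, SD, n = 5, against 208 ± 20.7 CPM, n = 15).

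Among the 8 oligodendrocyte markers tested, 5 fell (1.52% of all genes tested did) and none rose, with a median log2 fold change of -0.57 against -0.02 over all genes. They included Cldn11, Mobp (a structural protein of compact myelin, -0.80), Mog (-0.67) and Mag (-0.47), and the most abundant marker, Mbp, did not pass. Among DES libraries, only D12 replicate 4 reached the control range of Mog, at 227 CPM. The summed level of the list was 16985 to 26215 CPM in control and 9689 to 18775 CPM after DES. Of the 8 markers of precursors and newly formed cells tested, 3 fell and none rose, against the same 1.52%. Gpr17, a receptor of cells about to mature, was at 33.7, 38.2, 45.4, 44.7 and 32.5 CPM in control and at 16.4 to 26.2 CPM after DES (median 20.8), with no overlap (log2 fold change -0.88 ± 0.09, adjusted p = 1.03e-05). Enpp6, a choline phosphodiesterase of newly formed oligodendrocytes, was at 13.3 to 22.8 CPM in control and 3.22 to 11.7 CPM after DES (-1.13 ± 0.20). Pdgfra, the growth factor receptor that marks precursors, fell by 0.29, while Sox10 and Olig2, factors of the whole lineage, did not pass. In bulk tissue, fewer cells of a type and less RNA per cell cannot be told apart.

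Cholesterol is the main lipid of myelin, and 6 of the 18 synthesis genes fell while none rose (median log2 fold change -0.14), against 1.52% of all genes tested that fell. They included Hmgcs1, which makes HMG-CoA (-0.32 ± 0.05), Idi1 (-0.36 ± 0.07), Sqle (-0.22 ± 0.05), Cyp51 (-0.40 ± 0.07) and Dhcr7 (-0.30 ± 0.07). The changes were small but tight: Hmgcs1 was at 532 to 580 CPM in control and 390 to 521 CPM after DES, without overlap. By dose, 3 of the 6 passed in D3, 2 in D6 and 2 in D12.

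**Figure D2:**
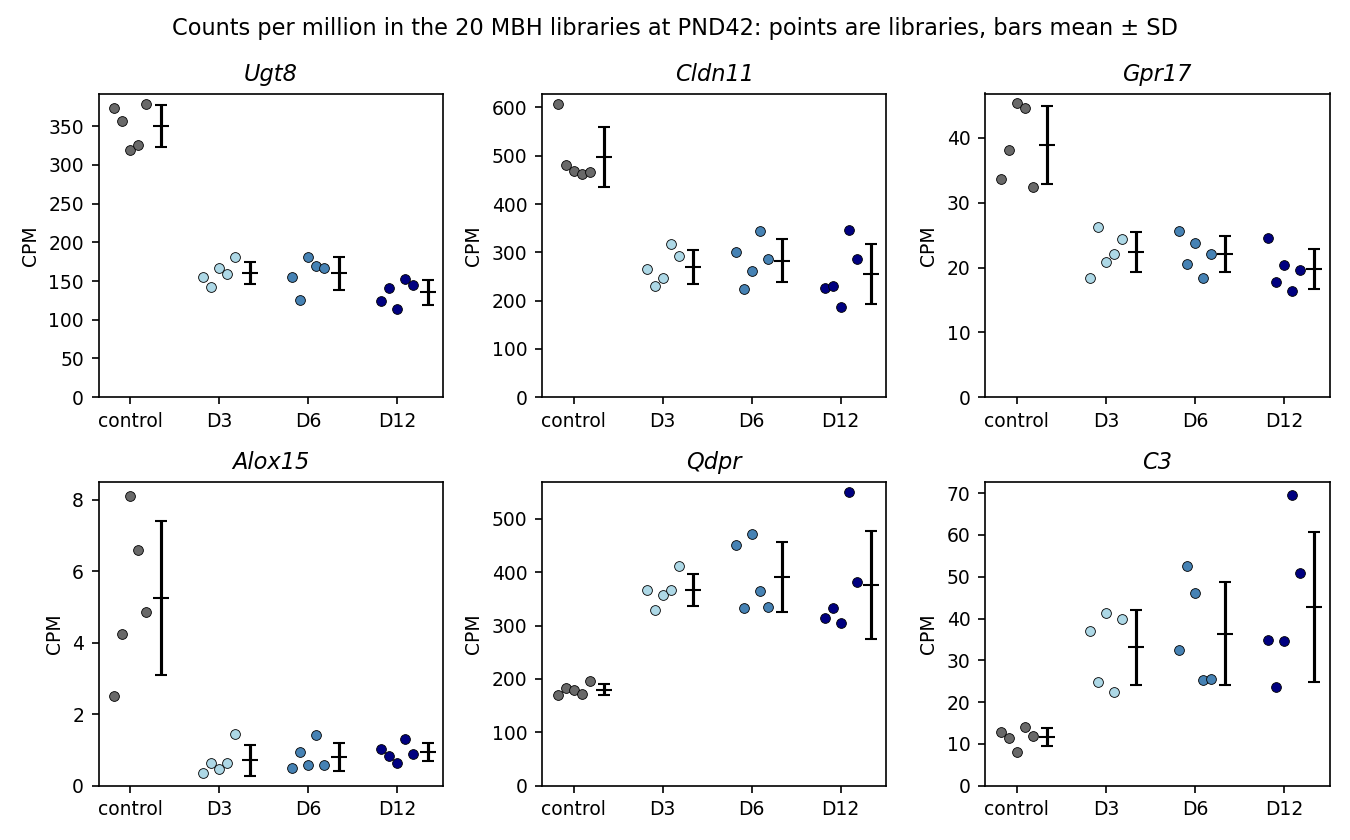
CPM of Ugt8, Cldn11, Gpr17, Alox15, Qdpr and C3 in each of the 20 MBH libraries at PND42 by group, with the mean and SD of 5 libraries beside the points. In all 6 genes the 5 control libraries stand apart from the 15 DES libraries, above them in the first 4 and below them in Qdpr and C3.

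Outside myelin, the lowest fold change of the named genes was that of Alox15, a lipoxygenase that oxidizes polyunsaturated fatty acids. It was at 2.52, 4.24, 8.11, 6.60 and 4.87 CPM in control and at 0.36 to 1.45 CPM after DES (median 0.64), a log2 fold change of -2.70 ± 0.26 (adjusted p = 5.2e-06). Pnlip, known as the pancreatic lipase, was at 14.9 to 21.0 CPM against 5.03 to 9.53 CPM (-1.37 ± 0.13). Both genes separated the groups completely.

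Genes of connective tissue and vessel walls formed the next group. Eln, which encodes elastin, was at 21.9, 20.1, 17.2, 34.4 and 10.4 CPM in control and at 3.97 to 8.89 CPM after DES, a log2 fold change of -1.71 ± 0.17 (adjusted p = 9.33e-06). Col3a1, a fibrillar collagen, was at 14.9 to 70.0 CPM in control and 3.75 to 16.0 CPM after DES (-2.10 ± 0.32, adjusted p = 0.00104). Col1a1 (-1.89 ± 0.35) and Lum, a proteoglycan that binds collagen (-1.30 ± 0.27), also fell. In these 3 genes the groups overlapped, and control replicates 3 and 5 were the lowest of control. Of the 7 pericyte and fibroblast markers tested, 4 fell (Vtn, -0.76, is the other) against 1.52% of all genes, the median was -0.98, and the sum went from 101 to 269 CPM in control to 64.8 to 124 CPM after DES, with Rgs5 the most abundant. Stab1, a scavenger receptor of sinusoidal endothelium and macrophages, fell by 1.30, a call lost in 14 of 28 alternative settings, and none of the 6 endothelial markers tested passed.

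Red cell transcripts moved with the exposure as well. Hbb, a beta chain of hemoglobin, was at 183, 234, 212, 258 and 329 CPM in control, and after DES at 48.2 to 257 CPM (median 84.7). Only D6 replicate 4 and D12 replicate 4, at 257 and 227 CPM, lay within the control range. The pooled log2 fold change was -1.26 ± 0.27, and 5 of the 6 blood markers tested fell (median -1.24), against 1.52% of all genes. By dose, 3 passed in D3 and 0 in D6 and D12, with unadjusted p-values of Hbb of 0.00716 in D6 and 0.0147 in D12. Alas2, which starts heme synthesis in red cells, fell by 1.31, and Hba-a3, an alpha chain, by 1.58, calls lost in 10 and 6 of 28 alternative settings. The hemoglobin genes have near-identical copies, so reads may be split among them. The summed level of the list was 471 to 679 CPM in control against 119 to 666 CPM after DES, with Hba-a1 the most abundant, and the part of blood in the other differences was not tested. Cyp4b1, a monooxygenase of fatty acids and foreign compounds, fell by 1.36, a call that was lost in 14 of 28 alternative settings.

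Among the genes that rose, Qdpr had the smallest p. Its enzyme regenerates the tetrahydrobiopterin that dopamine and serotonin synthesis use. It was at 169, 183, 180, 171 and 195 CPM in control. After DES it was at 367, 330, 357, 366 and 411 CPM in D3, at 451, 334, 471, 365 and 334 CPM in D6, and at 314, 332, 305, 550 and 382 CPM in D12, all above control (log2 fold change 1.05 ± 0.12, adjusted p = 5.43e-05). C3, the central complement component, was at 8.16 to 14.1 CPM in control and at 22.4 to 69.6 CPM after DES (median 34.9), with no overlap and a log2 fold change of 1.65 ± 0.24 (adjusted p = 6.17e-04). It rose at each dose, by 1.49, 1.62 and 1.85. Tap1, which carries peptides to class I molecules, rose by 0.81 ± 0.14 and was the only one of the 13 MHC genes tested to pass (0.827% of all genes rose). All 8 microglial markers tested had positive values, with a median of 0.15, and none passed the test.

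Other rises were spread over roles. Ngfr, the low-affinity neurotrophin receptor, was at 2.82 to 3.34 CPM in control and at 4.45 to 8.53 CPM after DES (log2 fold change 0.997 ± 0.133). Fndc7, whose protein holds fibronectin domains, rose by 1.11 ± 0.17, from 4.00 to 6.14 CPM to 6.85 to 18.4 CPM, also without overlap. Mfrp, a membrane frizzled-related protein, rose by 0.91 ± 0.23, a call lost in 11 of 28 settings. Tspo, a mitochondrial protein that binds cholesterol, rose by 0.70 ± 0.13. Of 7 tanycyte markers tested, 2 rose, against 0.827% of all genes tested: Crym, a thyroid hormone binding protein (26.1 ± 8.83 against 48.2 ± 14.3 CPM), and Rax, a homeobox factor (0.53 against 1.48 CPM). Of the 11 genes of the thyroid hormone response list, 2 passed (2.34% of all genes did): Crym, the gene already counted among tanycyte markers, and Dio2, which activates the hormone in glia and fell by 0.76.

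Immediate early genes, which cells transcribe within minutes of activity or stress, had positive values in 17 of 18 members, with a median log2 fold change of 0.56, and 3 rose. Over all 15113 genes tested, 6912 had positive values and 0.827% rose. Nr4a1, an orphan nuclear receptor, was at 9.99, 10.7, 5.62, 14.8 and 6.56 CPM in control, at 14.1, 7.73, 10.8, 27.0 and 20.6 CPM in D3, at 31.02, 23.4, 26.5, 15.9 and 37.7 CPM in D6, and at 45.7, 27.7, 31.1, 33.6 and 13.1 CPM in D12. Its pooled log2 fold change was 1.29 ± 0.30 (adjusted p = 0.0243), with 0.74 in D3, which did not pass, 1.48 in D6 and 1.63 in D12. Junb, a subunit of AP-1, was at 2.68 to 7.23 CPM in control and rose by 1.20 ± 0.30. The first 3 D3 replicates, at 4.501, 3.84 and 3.51 CPM, lay within the control range, and the other 12 DES libraries, at 8.65 to 16.8 CPM, lay above it. Ier2 rose by 1.05 ± 0.27 with the same split of D3. Klf2, a factor of resting endothelium and lymphocytes, rose by 1.71 ± 0.42 (0.58 to 1.39 against 1.08 to 6.23 CPM). Fos, at 9.14 to 29.0 CPM in control and 10.5 to 50.7 CPM after DES, had 0.96 ± 0.29 and did not pass (adjusted p = 0.0874). The calls of Cldn11, Mobp and Gpr17 held in all 28 alternative settings, while those of Nr4a1, Junb, Ier2 and Klf2 were lost in 6, 10, 14 and 9 of 28 alternative settings.

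Immediate early genes are known as a class to be regulated through cAMP response elements among others. For the 3 that rose, the 250 bases before each start are shown, from RefSeq on the assembly GRCr8, 5′ to 3′. Capitals mark the palindromic element TGACGTCA, which reads the same on both strands:
Ier2, chr19:40399123-40399372, plus strand: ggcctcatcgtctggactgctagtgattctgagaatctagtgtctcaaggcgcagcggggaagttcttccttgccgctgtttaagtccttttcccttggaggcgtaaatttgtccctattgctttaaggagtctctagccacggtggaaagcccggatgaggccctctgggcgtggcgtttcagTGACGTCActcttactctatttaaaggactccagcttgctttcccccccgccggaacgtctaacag
Junb, chr19:40080876-40081125, plus strand: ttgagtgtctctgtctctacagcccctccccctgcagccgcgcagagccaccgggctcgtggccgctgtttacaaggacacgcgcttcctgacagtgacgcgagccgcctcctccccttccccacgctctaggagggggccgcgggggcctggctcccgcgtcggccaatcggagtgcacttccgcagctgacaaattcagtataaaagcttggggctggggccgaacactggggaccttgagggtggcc
Nr4a1, chr7:134259888-134260137, plus strand: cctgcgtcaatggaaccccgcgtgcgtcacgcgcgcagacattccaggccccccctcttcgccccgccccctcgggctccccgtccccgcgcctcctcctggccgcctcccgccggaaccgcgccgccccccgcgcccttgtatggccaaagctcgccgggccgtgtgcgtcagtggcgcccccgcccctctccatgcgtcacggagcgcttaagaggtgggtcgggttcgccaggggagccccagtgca
Of these 3 windows, the element stood in that of Ier2 alone. It was in 3 of the 13 immediate early genes matched (23.1%), and in 302 of 11002 promoters of tested genes (2.74%). Promoter windows matched 261 of the 354 called genes by symbol. The consensus estrogen response element GGTCANNNTGACC was in none of these 261 and in none of the 11002, and in 6 of all 27457 windows (0.0219%). The sterol element TCACNCCAC, searched on both strands, was in none of the 13 cholesterol genes matched, against 1.02% of tested genes. The letters ACAAAG, a core that Sox factors bind, were on either strand in 19.2% of 177 windows of genes that fell, in 13.1% of 84 of genes that rose and in 11.6% of tested genes. A match is a description of letters, not of binding.

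**Figure D3:**
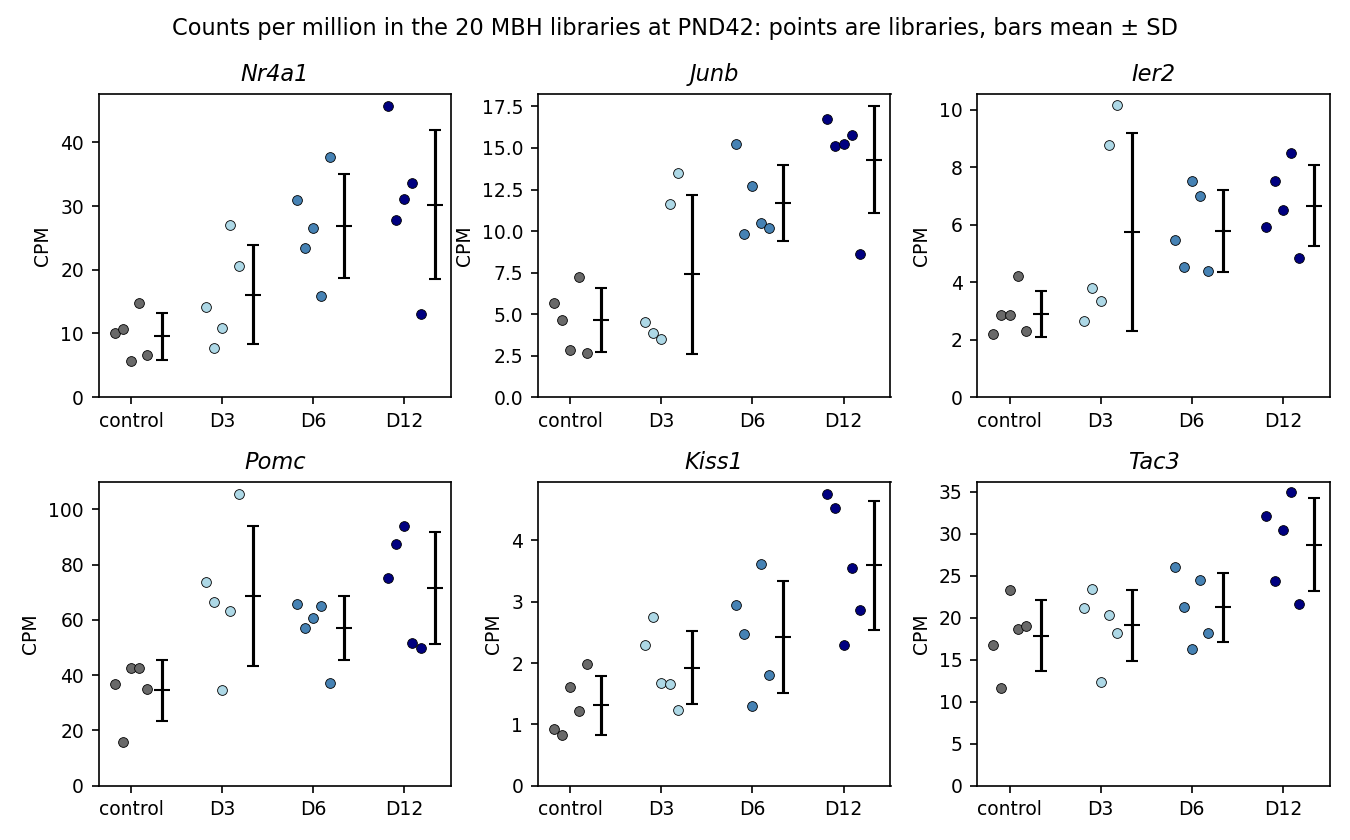
CPM of the immediate early genes Nr4a1, Junb and Ier2 and of the neuropeptide genes Pomc, Kiss1 and Tac3 in each MBH library at PND42 by group, with the mean and SD of 5 libraries. The groups overlap in all 6 genes, and the D12 libraries of Kiss1 (2.30 to 4.76 CPM) lie above all control libraries (0.83 to 1.98 CPM).

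Of the genes that control GnRH release, none of the 21 tested passed over all doses (median log2 fold change 0.05), against a background of 2.34%. Kiss1, which encodes kisspeptin, was at 0.92, 0.83, 1.604, 1.22 and 1.98 CPM in control, at 1.24 to 2.74 CPM in D3, at 1.31 to 3.62 CPM in D6 and at 4.76, 4.53, 2.30, 3.54 and 2.87 CPM in D12. Its D12 libraries lay above control and passed the test (log2 fold change 1.41 ± 0.30, adjusted p = 0.0263), while the pooled value of 0.93 ± 0.26 did not (adjusted p = 0.0636). The values of D3 (0.52) and D6 (0.86) lay between, and the difference between doses had an adjusted p of 0.585. Tac3, the neurokinin B of the same neurons, had 0.08, 0.23 and 0.65 in D3, D6 and D12 (adjusted p = 0.0853 in D12), and Pdyn, their dynorphin, 0.18 over all doses. Gnrh1 was at 0.54 to 2.14 CPM in control and 0.26 to 2.71 CPM after DES. Few GnRH cell bodies are known to lie in the MBH. Mkrn3 and Igsf10, known from human disorders of pubertal timing, had -0.23 ± 0.21 and 0.05 ± 0.17.

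No call was made among the 20 steroid receptors and partners, where the background of 2.34% gives few or none. Esr1, an estrogen receptor that DES binds, was at 11.7 ± 2.41 CPM in control and 12.0 ± 3.22 CPM after DES (log2 fold change 0.01 ± 0.18). Pgr, a classical target of estrogen, had 0.05 ± 0.24. Pomc, the precursor of melanocortins that reduce feeding, rose: it was at 36.8, 15.8, 42.6, 42.5 and 34.8 CPM in control and at 34.6 to 105 CPM after DES (median 64.8). The log2 fold change was 0.90 ± 0.23 (adjusted p = 0.0403), and the call was lost in 15 of 28 alternative settings. Agrp, its counterpart, had -0.30 ± 0.21 and Th, the dopamine enzyme, 0.69 ± 0.19 (adjusted p = 0.0558), neither past the test. By region, the median log2 fold change was 0.35 in the 8 arcuate markers, which include Pomc and Kiss1, and 0.45 in the 8 mammillary markers. It was -0.07 in the 8 ventromedial and -0.37 in the 8 thalamic markers. The part of dissection in the values of Pomc and Kiss1 was not tested. Oxt and Avp had 0.11 ± 0.47 and -0.11 ± 0.32. No call was made among the 22 GABA genes, the 29 glutamate genes or the 8 neuronal markers tested, and lists of this size hold few or no calls at the background of 2.34%. Of 67 genes that the study lists as regulators of GnRH, a list drawn from this series and thus no independent evidence of direction, Sirt2 (-0.43), Slc38a3 (-0.25) and Gpr17 fell and Cbx7, a Polycomb protein, rose (0.24), 4 calls against 2.34% of all genes.

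**Figure D4:**
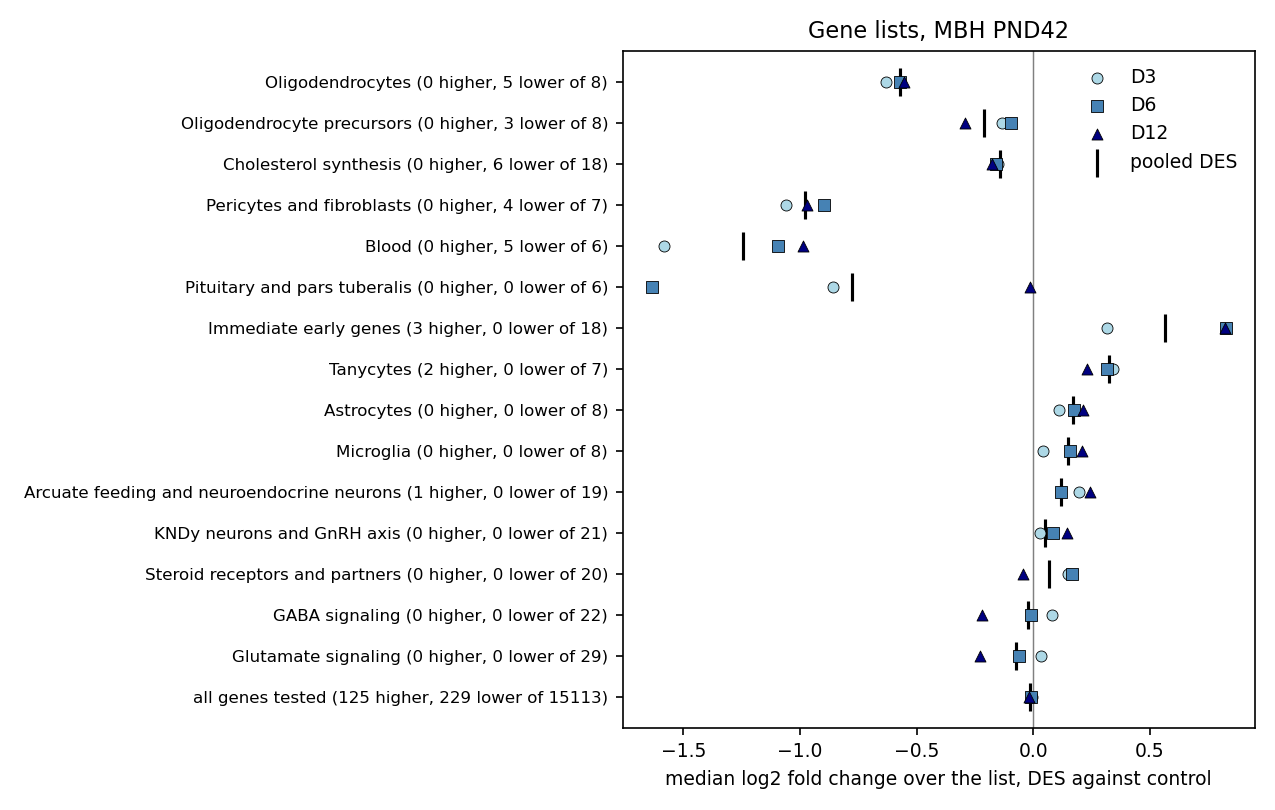
Median log2 fold change over each of a choice of lists, for pooled DES (bar), D3, D6 and D12 against control in the MBH at PND42, with the number of members that rose or fell over all doses. Of the lists drawn, those of blood (-1.24), pericytes and fibroblasts (-0.98), pituitary and pars tuberalis (-0.78, with no member past the test) and oligodendrocytes (-0.57) lie lowest and immediate early genes (0.56) highest, against -0.02 over all genes.

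No gene passed the test between doses, which does not show that the doses act alike. The genes with the smallest p for a difference between doses were Ccdc78, Crip1, RGD1560775, Setd4 and Galt, all with an adjusted p of 0.585. Crip1, a LIM domain protein, was at 6.57 to 7.44 CPM in control, at 6.28 to 8.82 CPM in D3, at 8.59 to 9.67 CPM in D6 and at 9.71 to 12.6 CPM in D12, and it rose in D12 by 0.585. Setd4, a methyltransferase, had -0.47 in D3, -0.46 in D6 and -0.10 in D12. Ccdc78, of multiciliated cells, had -0.35, 0.04 and 0.55, and Galt, which converts galactose phosphate, -0.41, -0.34 and 0.08. RGD1560775, named only by its locus, had -1.89, -2.17 and -0.35. Among called loci without a gene name, AABR07026112.1 (-0.84) and AABR07026002.1 (-0.63) had the smallest p.

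The direction of the 354 genes was then read on the age scale, without a test. In control POA libraries, 6.56% of genes differed between PND42 and PND90, and 344 of the 354 could be read there. Of these 344, 326 (94.8%) had the sign of the later age, against 71.2% of all genes, and 154 (44.8%) passed the test with that sign, against 6.39% of all genes. None passed it with the opposite sign. Ugt8 was at 343 to 456 CPM at PND42 and at 103 to 170 CPM at PND90 in the control POA, ranges that take in the MBH control mean of 350 CPM and the DES mean of 152 CPM. Qdpr was at 180 to 206 CPM and 316 to 340 CPM, and Gpr17 at 36.9 to 53.0 CPM and 24.2 to 29.4 CPM. Ngfr and Nr4a1 did not pass there, with log2 values of -0.33 and -0.14 from PND42 to PND90 against 0.997 and 1.29 after DES.

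In the POA at PND42, where the age scores of control (0.22 to 0.68) lay within those of DES (-0.06 to 0.74), the same contrast gave 0 of 14845 genes (1201 at an unadjusted p under 0.05, and 47 with DESeq2). There Ugt8 was at 382 ± 47.2 CPM in control and 402 ± 57.0 CPM after DES (log2 fold change 0.07) and Qdpr at 192 ± 11.3 and 180 ± 13.6 CPM. The difference between tissues passed the test in 44 of 15517 genes (0.284%), over 19 rats with 4 of control, and 121 without the block on rat number. Among the named genes it passed for Ugt8 (-1.26), Alox15 (-3.00), Pnlip (-1.53), Tspan2 (-0.78), Gpr17 (-1.11), Cldn11 (-1.15), Mobp (-0.78), Cyp51 (-0.44), AABR07026112.1 (-0.98), Qdpr (1.11) and Fndc7 (1.06). It did not pass for C3 (1.42, adjusted p = 0.107) or Col3a1 (-1.95, adjusted p = 0.447), and not for Nr4a1, Junb, Ier2 or Pomc. These values by gene are from the fit with the block.

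The same contrast in the MBH at the other ages differed in part. At PND22 it gave 3225 of 15233 genes (21.2%), 1690 higher (11.1%) and 1535 lower (10.1%), and the difference between PND42 and PND22 passed in 804 genes (5.19% of 15495). Alox15, Gpr17, Pnlip and Qdpr had -3.18, -1.26, -1.29 and 1.04 at PND22, beside -2.70, -0.88, -1.37 and 1.05 at PND42. The DES libraries of PND22 also had higher age scores than their controls, and in the control POA these 4 genes had -4.80, -2.22, -2.86 and 1.78 from PND22 to PND90, so the values at PND22 are no separate evidence of an effect of exposure. Myelin genes went apart: Cldn11 had 0.38 at PND22 against -0.91 and Ugt8 -0.15 against -1.24, both with a difference past the test (adjusted p = 1.96e-05 and 7.38e-05). At PND90, 0 of 15121 genes passed (2152 at an unadjusted p under 0.05, and 230 with DESeq2), where the D12 libraries spanned age scores from -0.83 to 1.81. The difference between PND42 and PND90 passed in 1 gene of 15481 (0.00646%).

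**Figure D5:**
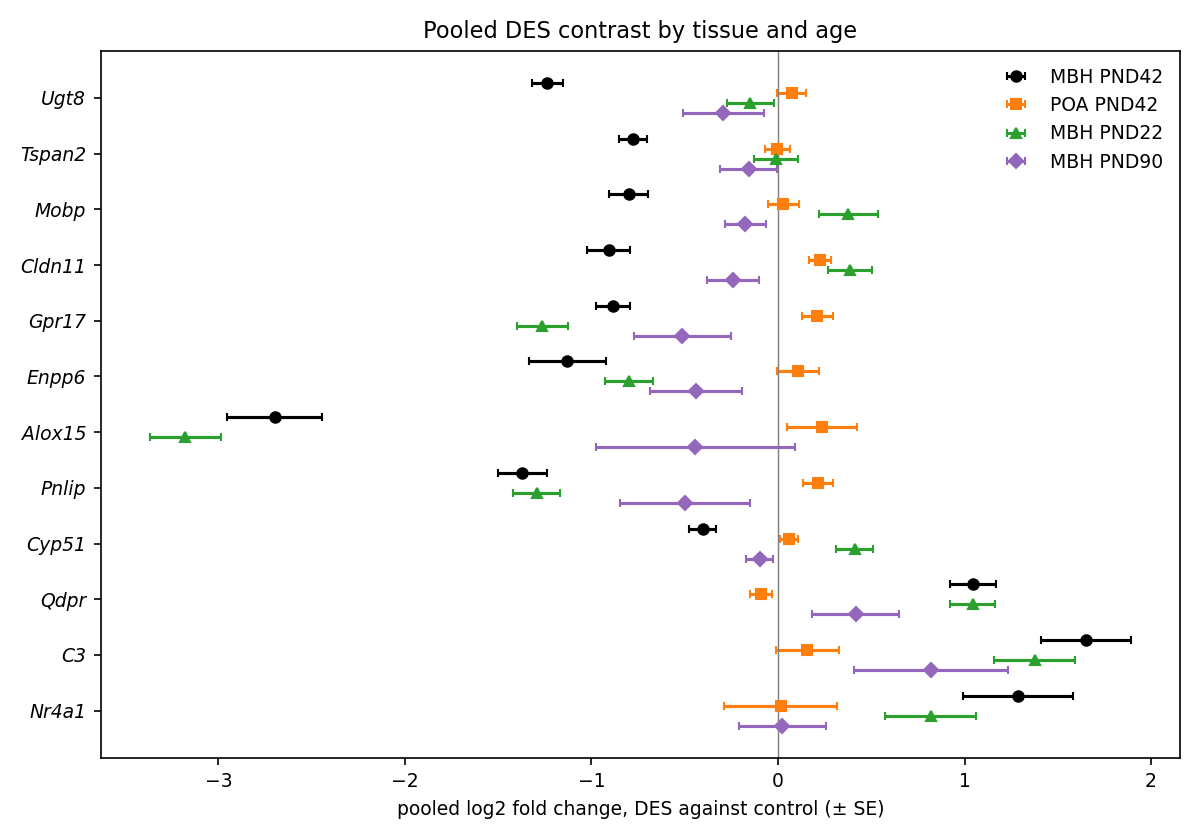
Pooled log2 fold change of DES against control, with SE, of 12 named genes in the MBH at PND42, the POA at PND42 and the MBH at PND22 and PND90. The POA values lie near 0 for all 12 genes. At PND22 the MBH values of Alox15, Gpr17, Pnlip, Enpp6, Qdpr, C3 and Nr4a1 have the sign of PND42. Those of Mobp, Cldn11 and Cyp51 have the opposite sign, and those of Ugt8 and Tspan2 lie near 0.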

How the data were processed

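The members and gene lists were chosen with earlier results of these data known. The authors made stranded messenger RNA libraries, used STAR for alignment of read pairs to Rnor_6.0 and featureCounts with Ensembl annotation, and deposited unnormalized counts of 32883 genes. Strand setting and multiply aligned reads are not given in the sources used here. Replicates are separate rats by label, and no library pair of a group agreed within sampling noise (chi-square per degree of freedom at least 6.23). Within D12, pairs with replicate 4 stood furthest apart (57.2 to 84.6), and within control, pairs with replicate 5 (35.7 to 68.1). Counts were tested with edgeR 4.0.16 (R 4.3.3): filterByExpr at a minimum count of 10, TMM, and a quasi-likelihood fit of control, D3, D6 and D12 without a block. The pooled contrast was the mean of 3 doses minus control, with Benjamini-Hochberg adjustment over all genes and a threshold of 0.05. SEs are the absolute log2 fold change divided by the root of F. Tissue and age differences were interaction contrasts, the former with rat number as a block. CPM were taken before TMM. Alternatives were DESeq2 1.42.0, other scaling, filters, groups and omitted libraries. The pipeline was tested on simulated data. Named genes were the 10 highest and 10 lowest pooled fold changes among called genes that had a gene name and averaged a log2 CPM of 1 or more, the 5 smallest p, 10 called list genes, 15 fixed neuroendocrine genes and the 5 smallest p between doses. Genes of lists are named where the list is described, and the age scale was chosen after values were seen. Limits at 0 cover counting error only. Some genes that the rule named are not reported here.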

Additional observations from a re-analysis of the deposited data

Results flagged for a closer look

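Effects of DES that differed between tissues or ages were led by the counts already given: 44 genes between MBH and POA at PND42, 804 between PND42 and PND22 in the MBH, and 1 between PND42 and PND90. Between tissues, MBH minus POA, the log2 differences were -1.26 in Ugt8, -3.00 in Alox15, -1.53 in Pnlip, -0.78 in Tspan2, -1.11 in Gpr17, 1.11 in Qdpr, -1.15 in Cldn11, -0.78 in Mobp, 1.06 in Fndc7, -0.98 in AABR07026112.1 and -0.44 in Cyp51. Between ages, PND42 minus PND22, they were -1.08 in Ugt8, -0.75 in Tspan2, -1.28 in Cldn11, -1.16 in Mobp, 1.66 in Fndc7, -0.55 in Hmgcs1, 0.62 in Tap1, -0.80 in Cyp51, -2.10 in Cyp4b1, 0.88 in Pdyn, -2.37 in Avp, 1.02 in Igsf10 and -3.73 in Oxt. The age scores of the libraries also differed between these sets, and their part in the differences was not tested.

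Single libraries stood far from the other 4 of their group in 17 of 200 groups of values, where chance alone gives about 10. In control, Cldn11 was at 608 CPM in replicate 1 (others 463 to 481), Agrp at 4.24 CPM in replicate 2 (others 8.17 to 9.66), Alas2 at 8.24 CPM in replicate 4 (others 4.17 to 5.26), and in replicate 5 Enpp6 was at 22.8 CPM (others 13.3 to 15.4) and AABR07026002.1 at 4.37 CPM (others 3.69 to 3.85). In D3, Pnlip was at 5.03 CPM in replicate 2 (others 7.31 to 8.16), Col3a1 at 14.4 CPM in replicate 3 (others 3.75 to 6.83), Hba-a3 at 2.10 CPM in replicate 4 (others 0.838 to 1.14), and in replicate 5 Alox15 was at 1.45 CPM (others 0.360 to 0.645) and Pgr at 6.23 CPM (others 13.0 to 15.3). In D6, Crip1 was at 8.59 CPM in replicate 2 (others 9.37 to 9.67), Ngfr at 7.11 CPM in replicate 3 (others 5.33 to 5.79), and Cyp51 at 273 CPM (others 232 to 241) and Alas2 at 5.67 CPM (others 1.15 to 1.89) in replicate 4. In D12, Col1a1 was at 17.8 CPM in replicate 2 (others 6.60 to 8.17), Pnlip at 9.53 CPM in replicate 4 (others 5.16 to 5.87), and Junb at 8.65 CPM in replicate 5 (others 15.1 to 16.8).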

How the results depend on the processing

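Of the 37 named genes that passed over all doses, 15 kept their call in all 28 alternative settings, Ugt8, Cldn11, Gpr17, Alox15, Qdpr and C3 among them, and none changed sign. The number of genes called over all doses (354) was 748 with DESeq2, 209 with the replicate block, 216 in 1 fit of all 7 groups and 53 with consecutive rat numbers summed. For D3 (72) it was 232 with DESeq2 and 20 summed. For D6 (97) it was 411 with DESeq2, 61 with the replicate block and 16 summed. For D12 (192) it was 507 with DESeq2, 84 with the replicate block, 26 summed, 106 without a filter on low counts and 38 with only the 2 groups compared. Between doses DESeq2 called 9 genes against 0. Between PND42 and PND22 (804), leaving out D3 replicate 3 and D12 replicate 4 of PND22 gave 1501, between PND42 and PND90 (1) the replicate block gave 2, and between tissues (44) the fit with no replicate block gave 121. Other settings that kept all libraries stayed within 1.5 times, and the cause of these shifts was not tested, apart from the fewer samples after summing.

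Leaving out 1 library at a time gave 125 (control replicate 2) to 516 (D12 replicate 4) genes over all doses, 32 to 135 in D3, 34 to 312 in D6, 50 to 232 in D12 and 0 between doses. Omitting a library moved at least 1 of these counts by over 1.5 times for each control library, for D3 replicates 1, 2, 4 and 5, for D6 replicates 1, 2 and 3 and for D12 replicates 1, 2, 3 and 4.

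Replicate numbers share no source in the labels. The deviations of same-numbered libraries from their group means correlated at over 0.1 in 8 of 30 pairs (median -0.05), against 36 of 120 pairs with other numbers (median -0.01). Such a comparison cannot show that same-numbered libraries have nothing else in common, which was not tested otherwise.

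Signs changed only in genes that did not pass. With the replicate block, Igsf10 had -0.0067, Oxt -0.21 and Esr1 -0.0082, and with consecutive rat numbers summed Pgr had -0.029 and Esr1 -0.055. Leaving out 1 library gave reversed values as far as -0.076 in Esr1, -0.034 in Pgr and -0.040 in Oxt. It gave -0.16 in Gnrh1, -0.029 in Ccdc78 and 0.011 in Avp. At the other end, over all 28 alternative settings, Esr1 reached 0.12, Pgr 0.22, Oxt 0.29, Gnrh1 0.23, Ccdc78 0.26 and Avp -0.27.

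Genes near 1 CPM, such as Kiss1 and Gnrh1, rest on few counts. The same 5 control libraries enter every comparison of a dose, or of all doses, with control.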

Other observations

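Proliferation was not among the lists, and Top2a, the topoisomerase of dividing cells, was chosen after its values were seen. It was at 1.70, 2.48, 2.67, 3.45 and 4.37 CPM in control and at 0.48 to 1.79 CPM after DES, a log2 fold change of -1.56 ± 0.21 (adjusted p = 2.18e-04), with -1.57, -1.89 and -1.22 by dose. Control replicate 1 lay below the highest DES library.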
